A study of Drosophila melanogaster with 2 samples.

Results

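The regions described here are 610 promoter regions of the nuclear fruit fly genome, listed in a ChIP-seq experiment on the mitochondrial DNA-binding protein TFAM. They ranked below the peaks kept by the authors' reproducibility threshold. The list holds background regions as well as peaks, so presence in it does not by itself show binding. These regions were chosen by measured values and position. A region was kept if it stood in the list that the authors called on the replicates combined, here the pooled list, had a peak value of 60 or more there, overlapped no thresholded peak by 1 bp, and had its summit, the base of highest signal, within 500 bp of an annotated transcription start site. Of 9598 pooled regions, 9576 lay on nuclear chromosomes and 8181 of these overlapped no thresholded peak. A value of 60 or more was reached by 1534 of the 8181, and 39.8% of those 1534 were the 610 promoter regions, while 924 had summits elsewhere. The value was set by the authors' peak caller against a control and has no physical unit. It therefore ranks regions within 1 list.

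The chromatin came from whole embryos of Drosophila melanogaster of mixed sex, aged 0 to 16 h, from 1 transgenic strain labelled TFAM-GFP that stably expresses TFAM with GFP fused to its C terminus. Sonicated fragments were 200 to 800 bp long, and precipitation used anti-GFP by the sample descriptions, while another label gives the antibody as TFAM. The 2 samples, numbered biological replicates 3 and 4, form 1 group from separate biosamples, so no condition is compared. No source used here names the promoter that drives the transgene, no untagged sample was analysed here, and no expression values were at hand with which to check the tissue against its markers. Read counts are not part of the peak lists, and library depth is unknown.

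TFAM carries HMG boxes, domains that bind and bend DNA with little sequence preference. It coats and compacts mitochondrial DNA and takes part in mitochondrial transcription. A promoter is the stretch of DNA around a transcription start site where the transcription machinery assembles, and in flies it often holds short elements such as the TATA box, the Initiator or the DNA replication-related element (DRE).

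The sequences of the members that lay nearest below the threshold show what DNA the text is about. Each window of the dm6 assembly (RefSeq, Release 6) holds the summit and 100 bases to each side, written 5′ to 3′ in the direction of the gene with the nearest start site, with coordinates counted from 1. Capitals mark every match to 10 strings, searched on both strands. The DRE is TATCGATA, and its core CGATA lies within it. Motif 1 is GGTCACAC. The E-box is CACGTG, and the E-box of Motif 5 is CAGCTG. The element bound by the GAGA factor was searched as GAGAGA, and that bound by the factor Zelda as CAGGTAG. The TATA box was searched as TATAAA and the Initiator as TCAGT. The last string is a run of AAAAAA. The window at the long non-coding RNA gene lncRNA:CR44022 is chr3R:29458888-29459088 on the minus strand, with its summit 290 bp downstream of the start site in an exon. The window at eyg, which encodes a Pax-family transcription factor of eye development, is chr3L:12468136-12468336 on the minus strand, with an intergenic summit 215 bp upstream. The window at CG4829 is chrX:16811329-16811529 on the plus strand, with an intergenic summit 270 bp upstream. The window at lncRNA:CR45168 is chr3L:12514850-12515050 on the minus strand, with its summit 59 bp downstream in an exon and start sites of tral and sti within 500 bp as well. The window at lama is chr3L:5355322-5355522 on the minus strand, with its summit 76 bp upstream of the nearest start site and in an intron of the annotation.
lncRNA:CR44022: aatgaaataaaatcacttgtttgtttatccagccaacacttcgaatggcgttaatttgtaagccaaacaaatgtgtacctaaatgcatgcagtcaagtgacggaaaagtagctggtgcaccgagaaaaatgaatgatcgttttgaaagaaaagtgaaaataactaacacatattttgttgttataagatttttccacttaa
eyg: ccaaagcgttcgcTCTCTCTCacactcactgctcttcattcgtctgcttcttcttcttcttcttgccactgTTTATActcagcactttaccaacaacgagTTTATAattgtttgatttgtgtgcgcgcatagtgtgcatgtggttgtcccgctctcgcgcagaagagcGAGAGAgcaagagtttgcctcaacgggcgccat
CG4829: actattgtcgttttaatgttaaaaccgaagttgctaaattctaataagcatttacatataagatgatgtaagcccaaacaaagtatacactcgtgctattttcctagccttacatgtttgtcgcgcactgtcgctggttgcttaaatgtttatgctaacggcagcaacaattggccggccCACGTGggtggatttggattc
lncRNA:CR45168: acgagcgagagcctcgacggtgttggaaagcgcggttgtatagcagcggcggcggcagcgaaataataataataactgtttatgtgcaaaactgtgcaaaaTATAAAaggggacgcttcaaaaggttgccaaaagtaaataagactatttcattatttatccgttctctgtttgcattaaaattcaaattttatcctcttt
lama: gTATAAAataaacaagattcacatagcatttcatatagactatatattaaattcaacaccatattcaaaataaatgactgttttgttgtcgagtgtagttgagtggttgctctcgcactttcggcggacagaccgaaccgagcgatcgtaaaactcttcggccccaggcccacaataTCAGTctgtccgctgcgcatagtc

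Another 3 windows were chosen to show the best-known core promoter elements and the ribosomal protein genes among the members. The highest member with a DRE lay at B52, which encodes an SR splicing factor, at chr3R:13661186-13661386 on the plus strand, with an intergenic summit 25 bp upstream of the start site. The highest with Motif 1 for which a window is shown lay at Mettl5, at chr3L:19264209-19264409 on the plus strand, with its summit 95 bp upstream and start sites of CG42374 and Max also within 500 bp. The highest at a cytosolic ribosomal protein gene lay at RpL9, at chr2L:11004019-11004219 on the minus strand, with its summit 34 bp downstream of the start site.
B52: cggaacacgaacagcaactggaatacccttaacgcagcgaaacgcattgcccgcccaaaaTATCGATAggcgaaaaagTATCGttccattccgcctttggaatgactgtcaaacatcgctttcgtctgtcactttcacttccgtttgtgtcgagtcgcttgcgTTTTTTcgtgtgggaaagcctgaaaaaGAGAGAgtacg
Mettl5: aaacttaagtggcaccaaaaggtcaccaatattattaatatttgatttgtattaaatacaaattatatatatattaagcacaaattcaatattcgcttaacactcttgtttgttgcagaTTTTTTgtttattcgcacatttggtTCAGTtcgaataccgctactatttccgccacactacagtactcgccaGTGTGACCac
RpL9: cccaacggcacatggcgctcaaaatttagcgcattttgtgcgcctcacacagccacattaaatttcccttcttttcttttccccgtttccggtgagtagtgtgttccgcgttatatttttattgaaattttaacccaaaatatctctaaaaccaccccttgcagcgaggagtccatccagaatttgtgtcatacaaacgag

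These 8 windows had no motif in common. The window at eyg held GAGA and TATA matches to both sides of its summit, the one at CG4829 an E-box, and the one at lncRNA:CR45168 a TATA match next to its summit. B52 held a DRE, a further DRE core, GAGA and a run of A. The windows at lncRNA:CR44022 and RpL9 held no match. A+T made up 67.2% of the bases at lncRNA:CR44022 and at Mettl5 but 51.2% at eyg and 52.2% at B52.

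Within the pooled list the members filled the range just under the threshold. Their pooled values ran from 60.1 to 92.3 with a median of 71.0 and quartiles of 65.2 and 79.4, and each region was 390 bp long. The thresholded list was the 1290 pooled regions of highest value, mitochondrial ones included, and its lowest value was 92.4. Values just inside and just outside the limits lay close together. The 5 members nearest to the floor were at mir-4962, Pu, CG9117, CG5174 and dos, with pooled values from 60.07 to 60.2. The 5 promoter regions nearest below it were at Srx, ras, CG10376, Asx and sud1, with 59.97 down to 59.8. At the upper limit, the members at lncRNA:CR44022 and lama, the highest and the lowest of these 5, had pooled values of 92.3 and 91.9. The thresholded promoter peaks nearest above were at mRpL32, CG9992, CG9706, Atpalpha and CG14882, with 92.4 to 92.8. In the pooled list, q-values of members ran from 0.00861 to 0.0861. The limit of 0.05 on the q-value was met by 464 of 610 members (76.1%), beside 14.0% of the 8181 nuclear regions that overlapped no thresholded peak. This q-value comes from the same calling as the value that chose the members and is given as a description.

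Most members overlapped a listed region in both replicates. The replicate lists hold background regions as well as peaks, and an overlap of 1 bp was enough. An overlapping region was present in the list of replicate 3 for 582 members, in that of replicate 4 for 591, and in both for 563, or 92.3% (95% Wilson interval 89.9 to 94.2). The corresponding share was 52.7% of the 8181 nuclear regions that overlapped no thresholded peak. No member was missing from both lists, 28 were missing from that of replicate 3 and 19 from that of replicate 4. Among the comparators, 614 of the 616 nuclear thresholded promoter peaks and 1044 of the 2221 promoter regions with values under 60 (47.0%) had a counterpart in both. The pooled values and the replicate lists entered the threshold that placed the members, so these shares describe the members and were not tested.

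The replicate values of the members lay between those of the other groups. In replicate 3 they ran from 13.8 to 73.8 with a median of 34.1 (quartiles 26.2 and 41.4), and in replicate 4 from 20.4 to 74.6 with a median of 39.1 (quartiles 32.3 and 45.7). The medians were 71.0 and 69.0 for thresholded promoter peaks and 21.0 and 28.6 for promoter regions under 60. Quartile ranges of members and of either comparator did not overlap in replicate 3. In replicate 4 the upper quartile of the regions under 60, at 33.7, lay above the lower quartile of the members. The groups were cut on the pooled value, which bounds the sum of the replicate values. The order of the groups therefore describes that choice and was not tested.

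**Figure D1:**
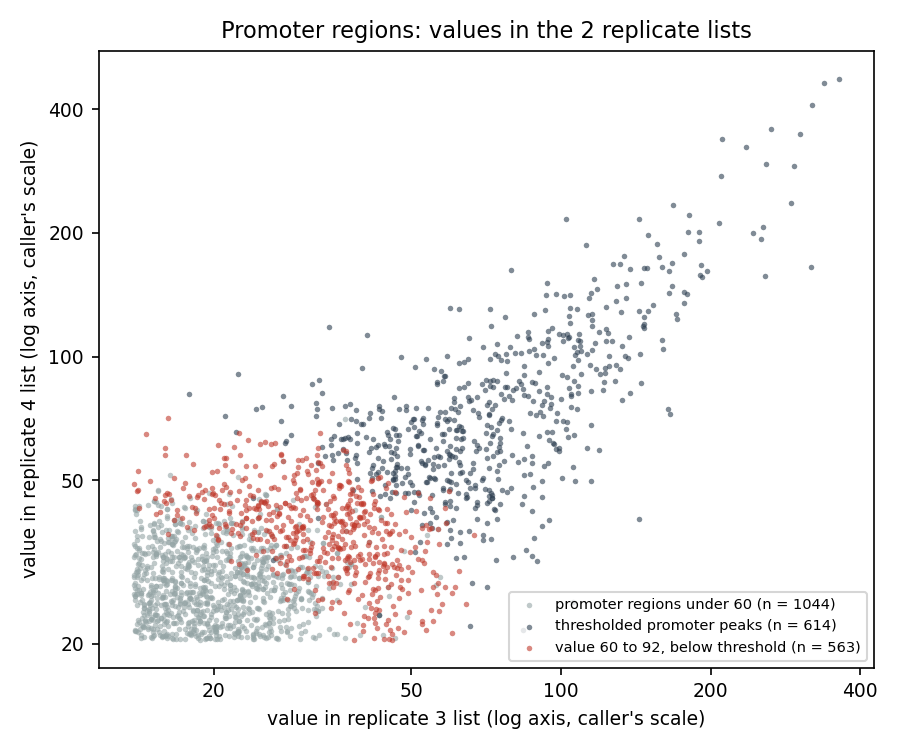
Each point is a promoter region found in both replicate lists, with its value in the list of replicate 3 on the x axis and in that of replicate 4 on the y axis, both on log axes in the caller's units. The 563 members form a band between the 1044 regions under 60 and the 614 thresholded promoter peaks. Within the band a high value in one replicate goes with a low value in the other, and the choice by pooled value bounds the band.

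The members were chosen within a narrow range of pooled values. Within it, those that ranked high in one replicate tended to rank low in the other. The sum of the replicate 3 and replicate 4 values divided by the pooled value ran from 0.653 to 1.32 over the 563, with a median of 0.992. The rank correlation of the replicate values was −0.50 over the 563 members, 0.56 over the 614 thresholded promoter peaks and −0.01 over the 1044 regions under 60. The choice by pooled value bounds the sum of the replicate values, so the correlation over members cannot be told apart from that choice. It is a description of regions that share 2 libraries and was not tested. The highest 1290 of 13396 regions of replicate 3 held 75 members (12.3%), the highest 1290 of 13455 of replicate 4 held 77 (12.6%), and no member was in both. For thresholded promoter peaks the counts were 520, 503 and 418 of 616. For regions under 60 they were 18, 14 and 0 of 2221. The pooled value that set these groups limits a high rank in both lists, so the counts describe that choice. The q-value limit of 0.05 was met by 414 members in replicate 3 (67.9%), by 180 in replicate 4 (29.5%), by 80 in both (13.1%) and by 96 in neither. In both it was met by 89.6% of thresholded promoter peaks and 0.27% of regions under 60. The 2 lists relate value and q-value differently. At lncRNA:CR44022 a value of 39.6 in replicate 3 had a q-value of 0.0085, and 43.9 in replicate 4 had 0.051.

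Where a replicate had a region, its summit mostly lay close to the pooled summit. The median distance was 16 bp over 582 members in replicate 3 and 11 bp over 591 in replicate 4. Of all 610 members, 486 (79.7%) had both replicate summits within 100 bp of the pooled one. The same held for 95.8% of all 616 thresholded promoter peaks and for 28.5% of all 2221 promoter regions under 60. Regions without a counterpart in both lists stay in these totals, and only 1044 of those under 60 had one in both.

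Some members stood high in one replicate list and low in the other. They were picked by the ratio of their replicate values after these were seen, and since the scales of the lists differ, their ranks in each list are given too. The member at trh, the gene of the bHLH-PAS factor that specifies tracheal cells, had 60.4 in replicate 3 (rank 780), 21.3 in replicate 4 (rank 12096) and 77.2 in the pooled list. That at lncRNA:CR44977 had 64.5 (rank 680) and 24.9 (rank 7780). At the other end, emc, which encodes an HLH protein that blocks bHLH factors, had 14.6 in replicate 3 (rank 11861) and 64.7 in replicate 4 (rank 722). The member at lolal had 16.2 (rank 9268) and 70.9 (rank 589), and that at hts, the gene of the membrane skeleton protein adducin, had 16.0 (rank 9501) and 60.01 (rank 860). Another 5 members were those with the highest value in the lower of their 2 replicates. The first of them lay at l(3)neo38, with 59.5 in replicate 3, 47.1 in replicate 4 and 86.0 in the pooled list. Among promoter regions under 60, the highest replicate 3 value and the highest value in the lower replicate were these same values. These replicate regions may thus also be counterparts of a region under 60. The others lay at CG8128 (51.6 and 46.6), rdog (46.4 and 46.9), CG14968 (48.2 and 45.4) and CG42542 with Kpc1 (54.6 and 45.2).

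The 15 members of highest pooled value, from 91.3 to 92.3, lay at genes of varied roles. The 5 of highest value had replicate 3 and replicate 4 values of 39.6 and 43.9 at lncRNA:CR44022, 32.4 and 59.9 at eyg, 53.4 and 38.9 at CG4829, 36.5 and 59.3 at lncRNA:CR45168, and 58.8 and 39.4 at lama. The sixth, at dnc, the cAMP phosphodiesterase gene known from learning mutants, had 66.8 and 36.8. Pax, the gene of the focal adhesion adaptor paxillin, had 52.5 and 38.2, Nuak, an AMPK-related kinase gene, 53.7 and 35.3, and ced-6, an adaptor gene of cell corpse engulfment, 53.1 and 33.7. The members at RhoGAP16F (41.7 and 49.9), Traf4 (33.1 and 54.2) and CG14968 followed. B52 had 39.3 in replicate 3 and 40.6 in replicate 4. Dg, the gene of the extracellular matrix receptor dystroglycan, shared its member with mRpL34 and had 62.4 and 30.1. The member at nkd, whose product restrains Wnt signalling, had 43.2 and 50.9.

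Summits of members lay mostly upstream of the start site. Of 610 summits, 443 lay upstream (72.6%, Wilson interval 69.0 to 76.0), 165 downstream and 2 at the start site itself. The background share was 64.2% of all 3514 nuclear pooled promoter regions. The median position was 90 bp upstream, against 122 bp for thresholded promoter peaks and 25 bp for promoter regions under 60. The upstream share was 83.6% of thresholded promoter peaks, so members were lower by 11.0 percentage points (Fisher's exact test, two-sided, adjusted p = 6.9e-06 over 6 tests). Among regions under 60 it was 56.1%, and members were higher by 16.5 points (same exact test, adjusted p = 5.8e-13). Regions are not replicates of an experiment, and these p-values describe the lists, with neighbouring promoters counted as independent.

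**Figure D2:**
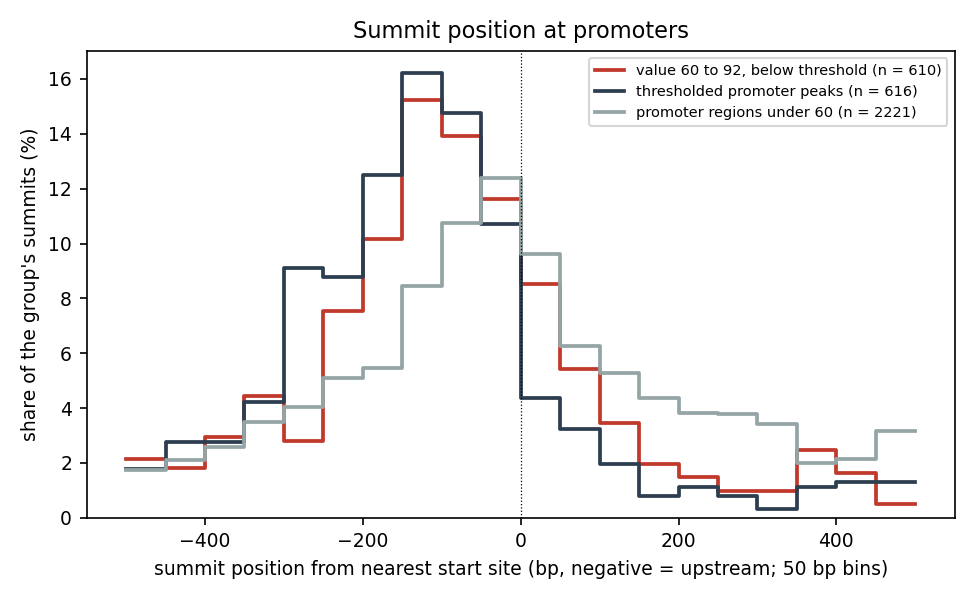
The x axis is the position of the summit relative to the nearest start site in 50 bp bins, negative upstream, and the y axis is the share of each group's summits in the bin, in percent. Members peak at 100 to 150 bp upstream with 15.2% of summits, as do thresholded promoter peaks with 16.2%, while regions under 60 are highest at 0 to 50 bp upstream with 12.4%.

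The upstream share was also counted along the members' own range of values. In 4 equal bins of pooled value, from lowest to highest, it was 67.3% (103 of 153), 72.5% (111 of 153), 75.7% (115 of 152) and 75.0% (114 of 152). The bins were cut on the value that chose the members, and no test was made. Where start sites lay on 1 strand only, a choice made after seeing the data, the upstream share was 70.1% of 401 members. That was 14.3 points below thresholded promoter peaks (Fisher's exact test, adjusted p = 2.2e-06) and 17.6 points above regions under 60 (adjusted p = 5.7e-10).

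A total of 429 members (70.3%) had the summit within 200 bp of a start site. The rule that chose the members used this distance, with the same 500 bp limit in each group compared. The share was 7.74 points above that of promoter regions under 60 (62.6%, Fisher's exact test, adjusted p = 6.2e-04). It was 5.72 points above that of thresholded promoter peaks (64.6%, same exact test, adjusted p = 0.040). These p-values describe the lists, with regions counted as independent. The difference from thresholded peaks lost the threshold of 0.05 without replicate 4, at 4.63 points (exact test, adjusted p = 0.12), and also with a promoter window of 1000 bp, floors of 40 or 80, the q-value limit or protein-coding start sites alone. On 1 strand only, the difference from regions under 60 was 3.32 points (exact test, adjusted p = 0.24), and with a floor of 80 it was 4.21 points (adjusted p = 0.40).

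Start sites on both strands were found within 500 bp of 209 summits (34.3%), against a background of 27.4% of all nuclear pooled promoter regions. The share was 23.8% of regions under 60, 10.5 points lower (Fisher's exact test, adjusted p = 9.3e-07). Thresholded promoter peaks had 32.5%, a difference of 1.79 points that did not pass the exact test (adjusted p = 0.51). It turned to −4.18 points with a 200 bp window and −2.62 with a floor of 40. Exactly 1 gene had a start site within 500 bp of 371 members, and 2 or more genes of 239, of which 28 had 3 or more.

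By annotation, 282 summits were intergenic, 165 in exons outside coding sequence, 146 in introns and 17 in coding sequence. Coding sequence held 2.79% of member summits, 1 of 616 thresholded promoter summits and 9.86% of those under 60. The gene with the nearest start site was protein-coding for 560 members, a non-coding RNA gene for 39, a transfer RNA gene for 5, a snoRNA gene for 4 and an snRNA gene for 2. A thresholded summit lay within 1000 bp of 21 members and within 5000 bp of 123, and the median distance to one was 21667 bp.

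The DNA under the members was rich in A and T. The median A+T content of the summit and 100 bp to each side was 63.2% (quartiles 56.7 and 68.2). It was 65.2% for thresholded promoter peaks, 58.2% for promoter regions under 60 and 61.2% over 19253 windows of the same length centred 100 bp upstream of protein-coding start sites. Upstream members had a median of 64.7% and downstream members 58.7%. The corresponding medians were 65.2% and 62.2% for thresholded peaks and 61.7% and 54.7% for regions under 60. Over the same bins, from lowest to highest value, the medians of members were 60.7%, 63.7%, 63.7% and 64.7%. A+T content thus differed by side and was lowest in the bin of lowest value. The part of base composition in the position result was not tested.

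**Figure D3:**
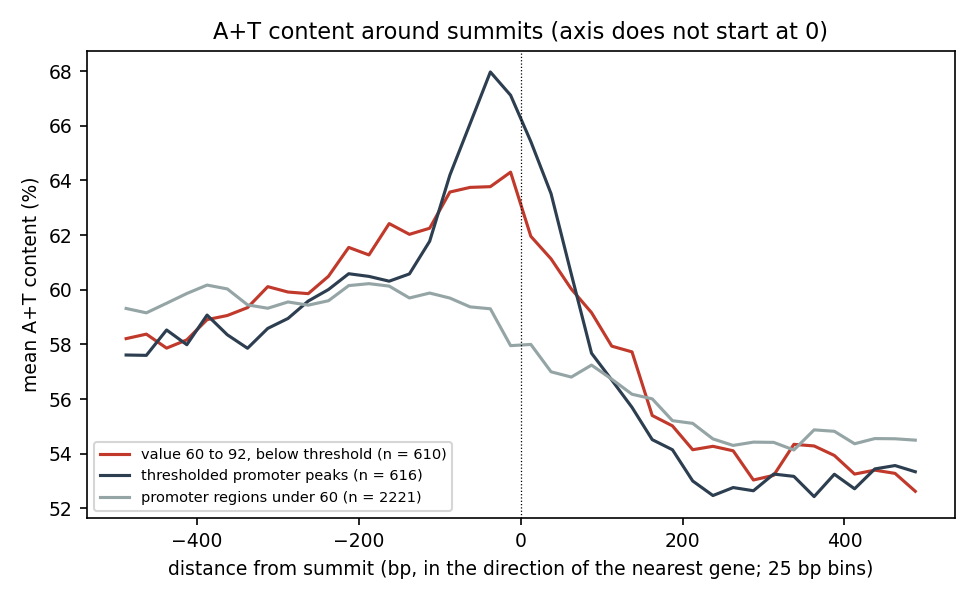
The x axis is the distance from the summit in bp, in the direction of the nearest gene and in 25 bp bins, and the y axis is the mean A+T content of each group in percent, on an axis that does not start at 0. The profile of members reaches 64.3% just upstream of the summit, below the 68.0% of thresholded promoter peaks, and regions under 60 have no maximum there, with 58.2% over the central 100 bp.

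Most short sequence elements had shares in members within a few points of those in promoters at large. The DRE was present in 35 members (5.74%), in 5.19% of thresholded promoter peaks, in 4.73% of regions under 60 and in 6.21% of the 19253 promoter windows. Its core CGATA was present in 34.8% of members and 36.6% of promoter windows; all 35 members with a DRE are among these, and 177 held the core alone. Motif 1 was found in 33 members (5.41%, Wilson interval 3.88 to 7.50), 16 thresholded promoter peaks (2.60%, 1.61 to 4.18), 4.23% of regions under 60 and 3.33% of promoter windows. TATAAA anywhere in the window was found in 37.2% of members, 36.4% of thresholded peaks, 24.7% of regions under 60 and 33.6% of promoter windows. Of these values, the TATAAA share of members stood furthest above that of regions under 60, and A+T content was higher in members as well. A letter match is a description of these windows and not a bound site.

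The remaining elements differed by a few points. GAGA was present in 12.1% of members and 11.1% of promoter windows, TCAGT in 34.3% and 33.4%, CAGCTG in 11.1% and 12.01%, and AAAAAA in 41.3% and 37.5%. CACGTG was present in 2.13% of members and 2.19% of promoter windows, and the Zelda element in 0.82% and 1.19%. None of the 10 strings was found in 65 members. At the position where a TATA box acts, 40 to 20 bp upstream of the start site, TATAAA was found at 2.95% of members' start sites, at 3.25% of those of thresholded peaks and at 6.19% of all protein-coding start sites. The Initiator string lay from 5 bp before to 10 bp after the start at 13.1% of members' start sites and 12.3% of all.

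Members lay within 500 bp of start sites of 860 genes, of which 775 were protein-coding, 5.56% of 13945 protein-coding genes. Thresholded promoter peaks covered 5.35% of them. Both kinds were found at 31 of the 860 genes, beside thresholded promoter peaks at 820 of all 18164 annotated genes (4.51%). The rule left out regions that overlapped a thresholded peak, and this count was not tested. The pooled values of member and thresholded peak were 68.5 and 543 at CG1888. They were 81.5 and 375 at for, the cGMP-dependent protein kinase gene of foraging behaviour, 88.5 and 349 at Rtnl1, a reticulon gene of the endoplasmic reticulum, and 91.9 and 217 at dnc. At gro, the gene of the corepressor Groucho, they were 78.6 and 202, and at Trl, which encodes the GAGA factor, 65.9 and 98.3. A member has a lower value than any thresholded peak by the way it was chosen.

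**Figure D4:**
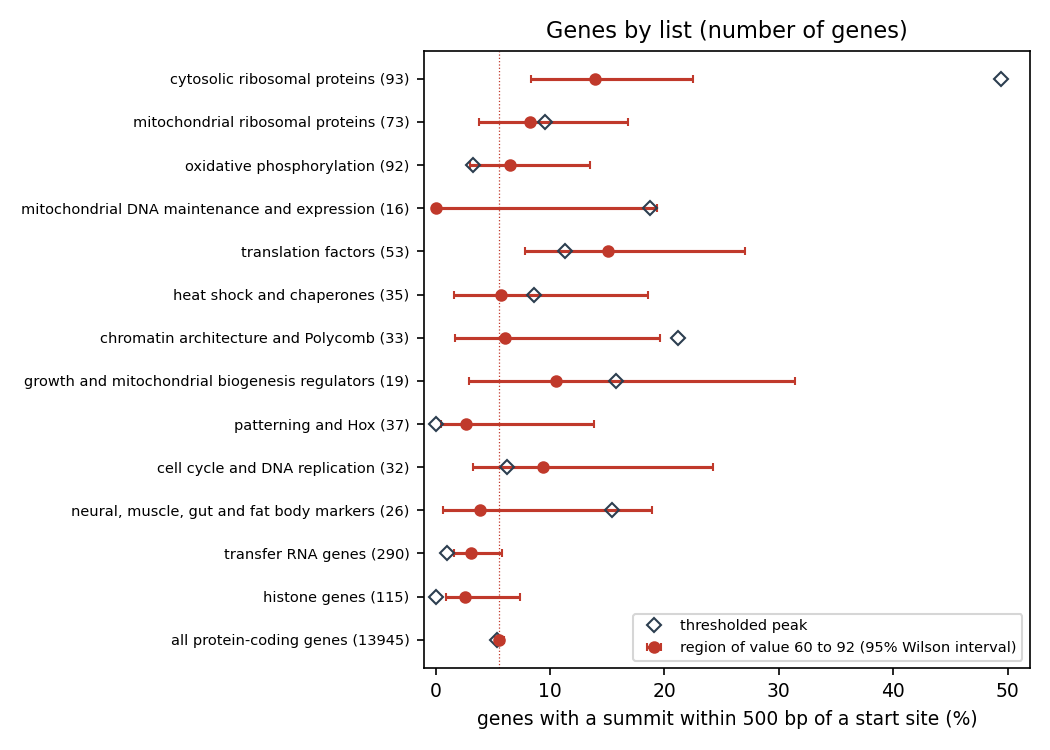
The x axis is the percentage of genes in each list with a summit within 500 bp of a start site. Filled points are members with 95% Wilson intervals, open diamonds are thresholded peaks, and the dotted line marks the share of all protein-coding genes with a member. Of cytosolic ribosomal protein genes 14.0% had a member and 49.5% a thresholded peak.

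Genes of the cytosolic ribosome had the highest count of genes with a member among the 13 lists, while translation factor genes had the higher share. Of 93 cytosolic ribosomal protein genes, 13 had a member, 13.98% beside the 5.56% of all protein-coding genes, and 46 had a thresholded peak. The pooled values of the 13 ran from 60.5 to 85.96 with a median of 70.3, close to the 71.0 of all members. At RpL9, of the large subunit, replicate 3 had 36.9, replicate 4 had 58.9 and the pooled list 85.96. RpS15, of the small subunit, had 24.8, 61.3 and 85.4 in the same order, and RpS29 had 41.0, 34.7 and 83.2. The others included RpS14a, RpS19a, RpL12, RpS27A, RpL10Ab, RpL29, RpL10, RpL37-1 and RpL38, with pooled values from 81.9 down to 60.5. All 13 had a counterpart in both replicates, beside 92.3% of all members. The summits of the 13 lay at a median distance of 34 bp from the start site against 127 bp over all members. No test was made for any list, since the lists were chosen with results of these data known.

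Other genes of translation had 8 members among 53 translation factor genes (15.1%, Wilson interval 7.85 to 27.1), beside 5.56% of all protein-coding genes, and 6 had a thresholded peak. eIF3h and eIF3a encode subunits of the initiation complex eIF3. The member at eIF3h had 37.3 in replicate 3, 53.2 in replicate 4 and 89.5 pooled, and that at eIF3a, shared with CG1074, had 26.5, 54.7 and 81.9. At eIF4G2, shared with CG33111, the values were 32.8, 65.0 and 78.1. The other 5 were at eEF5, eIF2Balpha, eIF5B, eIF2beta and eIF2gamma, with pooled values from 69.8 to 60.4, and that at eIF2Balpha had no counterpart in replicate 3.

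Nuclear genes of the mitochondrion had shares near the 5.56% of all protein-coding genes. Of 73 mitochondrial ribosomal protein genes 6 had a member (8.22%, Wilson interval 3.82 to 16.8), and the gene with the nearest start site was another one in 5 of the 6. The highest was mRpL34 beside Dg, then mRpS16 beside cg, which had no region in replicate 3, 74.6 in replicate 4 and 86.01 pooled. mRpL20, beside Icmt, had 30.2, 38.5 and 76.3. Of 92 oxidative phosphorylation genes 6 had a member (6.52%, 3.02 to 13.5). At ND-24, a complex I subunit, the values were 56.0 in replicate 3, 29.5 in replicate 4 and 84.9 pooled. ND-42, also of complex I, had 34.6, 35.7 and 71.7, and UQCR-C2, of complex III, had 36.7, 32.0 and 67.3. ND-MNLL, ATPsynC, the gene of the membrane ring subunit of ATP synthase, and UQCR-14 had pooled values of 65.2, 63.9 and 63.0. None of the 16 genes of mitochondrial DNA maintenance and expression had a member, which 0 of 16 leaves compatible with shares of up to 19.4% (Wilson interval), and 3 had a thresholded peak. TFAM itself, at chr3R:20575245-20577010, had neither. The pooled region nearest to its start site lay 821 bp away with a value of 45.6 and a q-value of 0.44.

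The smaller lists had 1 to 3 genes each with a member, or 2.70% to 10.5% of the list, and the Wilson interval of each included the 5.56% of all protein-coding genes. Among 32 cell cycle and replication genes they were dpa, which encodes a subunit of the MCM helicase (34.8 in replicate 3, 37.0 in replicate 4, 76.5 pooled), Cdk1 (44.5, 22.3 and 65.4) and CycB (28.3, 30.0 and 61.3). Cdk1 shared its member with mRpS7. Of 33 chromatin genes, E(z), the histone methyltransferase of Polycomb repression, had 42.3, 34.3 and 72.7, and Trl had 18.3, 37.8 and 65.9. Of 19 growth regulators, Max, the gene of the binding partner of Myc, shared the member at Mettl5 with 44.9, 49.3 and 88.6, and foxo, of insulin signalling, had 52.4, 22.7 and 77.4. Of 35 heat shock and chaperone genes, Hsc70-4 had 46.9, 32.0 and 71.04 and Hsp26 had 37.3, 26.8 and 64.4. Of 37 patterning and Hox genes bcd, of the anterior morphogen, was the 1 with a member, at 27.6, 39.0 and 66.9, and none had a thresholded peak. Of 26 tissue markers trh was the 1 with a member.

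Transfer RNA and histone genes had shares whose intervals included the 4.73% of all annotated genes. Of 290 transfer RNA genes 9 had a start site within 500 bp of a member (3.10%, Wilson interval 1.64 to 5.79), and 3 had a thresholded peak. The highest, at tRNA:Leu-CAA-2-2, had 42.9 in replicate 3, 42.5 in replicate 4 and 83.6 pooled. That at tRNA:His-GTG-1-3 had 34.9, 45.3 and 80.4, and its nearest start site was of CG8490, and that at tRNA:Ala-TGC-2-1 had 24.6, 43.2 and 70.9. The remaining 6 genes lay at 3 members, so that several transfer RNA genes shared one. Of 115 histone genes 3 had a member (2.61%, 0.891 to 7.39). No histone gene had a thresholded peak, beside 4.51% of all 18164 annotated genes. None had a pooled promoter region under 60 either, while 2590 of the 18164 had one. The lists hold no read counts, so a gene without signal cannot be told apart from one without placed reads. Each of the 3 with a member is a replication-independent gene outside the repeated histone cluster. His2Av, the gene of the H2A variant, had 41.4, 49.7 and 87.4, His3.3B had 42.8, 29.0 and 75.03, and His4r had 22.9, 50.2 and 72.8. At His2Av and His4r the nearest start sites were those of ball and put.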

How the data were processed

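ChIP-seq of TFAM-GFP was carried out on 2 samples of 1 group. Peaks and background regions were called for each replicate with a control alignment and once on both replicates together, and a list thresholded on the irreproducible discovery rate (rank reproducibility between replicates) was derived from these, per the deposited descriptions. No source used here names the aligner or the peak caller. The value of each region is a score set by the authors' peak caller, and the deposited −log10 of a q-value was turned into a q-value. The lists on dm3 were not used here.

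Region ends lay within the chromosome lengths of the RefSeq Release 6 FASTA. Start sites and symbols are those of Ensembl's BDGP6.54 annotation, with transposable elements left out. Each region was named by its nearest start site. A counterpart in a replicate list overlaps by 1 bp. Wilson intervals (95%) cover the counting of regions or genes only, and with no read counts the precision of a value is unknown. Differences in summit position were tested with two-sided Fisher's exact tests (Python 3.11.15, scipy 1.17.1) with Benjamini-Hochberg adjustment over 6 tests and a threshold of 0.05, after the procedure had been tested on simulated data. Gene lists, motifs, A+T content and replicate values were not tested.

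The regions and the 13 gene lists were chosen with earlier results of these data known. The genes named are the nearest to the 15 members of highest pooled value, the 5 of highest value in the lower replicate, up to 3 per gene list, the 5 regions on each side of the floor, and TFAM. The regions on each side of the reproducibility threshold, the replicate extremes, the remaining list genes and the genes with 2 kinds of region were added after their values were seen. Alternatives varied the promoter window, the floor, the q-value, a 500 bp buffer to thresholded peaks, the start sites, the overlap, the sequence window and the replicates. Some genes are not reported here.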

Additional observations from a re-analysis of the deposited data

How the results depend on the processing

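A recomputed test counted as kept if its direction and side of the threshold stayed. Shares and medians had to stay within the interval of the main value, and counts within a set ratio of it. Of 171 recomputed values, 135 were kept, 25 moved, 9 lost the threshold of 0.05 and 2 reversed. These were the both-strand difference from thresholded peaks, which did not pass the test in any alternative run and was −4.18 points with a 200 bp window and −2.62 with a floor of 40. The upstream differences, and the both-strand difference from regions under 60, kept direction and side in each alternative run. The 200 bp difference from thresholded peaks was 1.38 points with a 1000 bp promoter window (exact test, adjusted p = 0.73), 2.49 with a floor of 40 (0.26), 3.63 with a floor of 80 (0.44), 4.14 with q-values of 0.05 or less (0.21), 5.39 with protein-coding start sites (0.067) and 6.44 on 1 strand (0.090), a choice made after seeing the data. Leaving out either replicate gave 4.63 to 6.07 points. That from regions under 60 was 4.21 points with a floor of 80 (0.40) and 3.32 on 1 strand (0.24), where the share itself was 58.6%. A floor of 40 gave 2000 members, 2457 genes, 69.7% in both replicate lists, 63.7% upstream, 29.85% with both strands, 60.2% A+T and 29.95% with TATAAA. A floor of 80 gave 148 members, 217 genes, 97.97% in both lists, 64.7% A+T, 41.9% with TATAAA and 29.1% with CGATA. A 200 bp window gave 548 genes, 21.4% with both strands and 41.5% with CGATA, and a 1000 bp window 66.2% upstream and 54.4% within 200 bp. Replicate summits within 100 bp gave 79.7% in both lists. Searching 50 bp to each side gave 20.7% for TATAAA, 19.2% for CGATA, 21.5% for AAAAAA, 17.0% for TCAGT and 4.59% for GAGAGA, in a shorter window. Other causes were not tested. Leaving out a replicate means keeping regions with a counterpart in the other, since the pooled list could not be called again. The share in both lists has no value under that setting, nor the 200 bp share under a 200 bp window. No paired analysis was possible because there is 1 group. Depth is unknown, which limits every value.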

Other observations

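Members lay on every major chromosome arm. Their density was 5.02 per Mb on 2L, 4.98 on 2R, 4.59 on 3L, 4.68 on 3R, 3.57 on X and 2.23 on chromosome 4, which held 3 members. Those 3 lay at gw, which encodes the GW182 protein of microRNA silencing, at PlexA, a semaphorin receptor gene, and at CG31999. The member at gw had 56.5 in replicate 3, 28.1 in replicate 4 and 80.9 pooled, that at PlexA had 38.4, 38.9 and 70.7, and that at CG31999 had 25.3, 44.2 and 70.1. As a share of regions of value 60 or more below the threshold, members made up 35.6% on X, 47.7% on 2R and 75% on chromosome 4 (3 of 4). The X chromosome held 13.8% of members and 15.6% of thresholded promoter peaks.

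A start site of 20 genes lay near each of 2 members. At bun, a TSC22-family gene, the members had pooled values of 77.2 and 64.3, and the first had 61.0 in replicate 3 and no counterpart in replicate 4, while the second had 13.8 and 49.05. At Top1, the topoisomerase I gene, the pooled values were 83.8 and 62.8, with 29.8 and 47.4 in replicates 3 and 4 at the first and 26.2 and 36.6 at the second. At Diap1, the inhibitor of apoptosis gene, they were 87.9 and 61.9. Both members at Diap1 shared the same region of replicate 3, with a value of 39.95, so that they are not separate there. These genes were chosen after their values were seen.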
